A study of Mus musculus with 247 samples.

Results

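The RNA of RAW264.7 cells whose Gps2 gene had been targeted with CRISPR/Cas9 (GPS2 KO) was compared with that of wild-type cells (WT), neither of them treated. RAW264.7 is a mouse macrophage line of BALB/c origin, and both genotypes were kept in serum-supplemented DMEM without any added agent. Each group had 4 poly(A) RNA-seq libraries made with the NEBNext Ultra II kit, 8 of the 16 RNA-seq libraries among the 247 samples of the series. The other 8 came from the same genotypes after 6 hours with lipopolysaccharide (LPS, a bacterial cell wall component) at 10 ng/ml. Every gene of the RNA table was taken. Of 14378 genes, 11478 held enough reads to be tested and 2900 did not. The labels name no separate cultures or clones. The p-values therefore measure only the spread between libraries, which may be technical, and a difference between clones cannot be told apart from the loss of GPS2. In bulk RNA, fewer cells of a type and less RNA per cell also cannot be told apart.

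GPS2 is a small subunit of the nuclear corepressor complex, which also holds NCoR, the histone deacetylase HDAC3 and the WD-repeat proteins TBL1X and TBLR1. Nuclear receptors and other DNA-bound factors bring the complex to enhancers and promoters, where HDAC3 takes acetyl groups off histones. In macrophages GPS2 is known as a brake on inflammatory genes and as a partner of lipid-sensing nuclear receptors.

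Gps2 RNA (NM_019726, chromosome 11, 69727522 to 69730096 on the forward strand, build mm9) was lower in every KO library. It stood at 537, 506, 489.6 and 481 in the WT libraries and 153, 158, 149 and 154 in the KO libraries, in reads per 10000000 mapped reads after normalisation, the unit of all levels below. The groups did not overlap, and 30.5% of the WT mean was left (log2 -1.71 ± 0.0542, adjusted p = 2.58e-16; a log2 value here is the KO minus WT difference of log2(level + 1) with its standard error). Of the 13 genes of the complex and its partners, 5 rose and 6 fell, where 31.8% and 31% of all tested genes did. A gene is called higher or lower at a limma Benjamini-Hochberg adjusted p under 0.05. Ncor1, which encodes NCoR, stood at 1206, 1376, 1477 and 1546 in the WT libraries and 1799, 1819, 1852 and 1869 in the KO libraries, and all KO libraries lay above all WT libraries (log2 0.39). Kdm4a, a histone demethylase found with the complex, rose by 0.91, and Coro2a, an actin-binding partner, fell by 0.90. Hdac3 did not pass the test (log2 -0.05, adjusted p = 0.353), though it was called lower with library totals as the scale (-0.13, adjusted p = 0.0143).

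The cells expressed macrophage genes in both genotypes. Adgre1, which encodes the F4/80 surface protein, averaged 816 ± 43.0 in WT and 805 ± 40.8 in KO cells (mean ± SD, n = 4), and Csf1r, the receptor of the macrophage growth factor CSF-1, 19884 ± 461 and 24965 ± 397. The engulfment receptor gene Mertk was close to 0 in both, at 1.36 and 2.65 on average. Of 21 tested macrophage identity genes, 15 rose and 4 fell. Markers of other cells were at low levels: 4 neutrophil genes in the table summed to 17.9 to 21.5 in WT and 109 to 123 in KO libraries, nearly all of it Csf3r. S100a8 was at 0 to 0.638 in WT and 2.95 to 7.84 in KO libraries, and Camp was at or near 0 in all 8. Lymphocyte genes summed to 43.4 to 45.6 and 88.9 to 95.7, nearly all of it the kinase gene Lck, which rose (1.06), and Cd4 and Cd79a stayed at or below 1.66 in every library. The 5 erythroid and megakaryocyte genes summed to 154 to 186 in WT and 13 to 19.3 in KO libraries, mostly through Gypc (-6.03) and, to a smaller part, the platelet factor gene Pf4 (-1.21). The part of other cells in the results was not tested. Mapped reads ran from 15195565 to 21264261 per library, so 1 read is worth less than 1 unit of level. Pairs of libraries of 1 group differed by more than counting noise, with a chi-square per gene of 2.76 to 7.54 in WT and 1.45 to 3.43 in KO cells, so none was a duplicate of another.

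Loss of GPS2 went with small shifts in most genes and large ones in a minority. Of the 11478 genes, 7212 were called (62.8%), 3650 of them higher and 3562 lower. Their median change was only 0.34 in size on the log2 scale, and 4929 of them (68.3%) moved by less than 0.5. A difference of at least 1 on the log2 scale was reached by 470 genes that rose (4.09%) and 343 that fell (2.99%), at least 2 by 159 and 84, and at least 3 by 56 and 36. The 343 include 22 gamma protocadherin genes whose reads cannot be told apart, and no count of the 343 was adjusted for this. The libraries of the 2 groups did not overlap at all for 6453 genes, of which 6285 were called. Scaling by library totals shifted the median of all genes to -0.07 and the split to 2751 higher and 4618 lower, but the 813 genes past 1 kept their direction and call. A fit that also held the LPS libraries called 4180 of 11791 genes, 2122 higher and 2058 lower. A test against a 1.5-fold change called 1007. The authors' deposited table lists 2947 genes higher and 3035 lower, of which 5879 were tested here and 5872 of these were called in the same direction and 0 in the other.

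**Figure D1:**
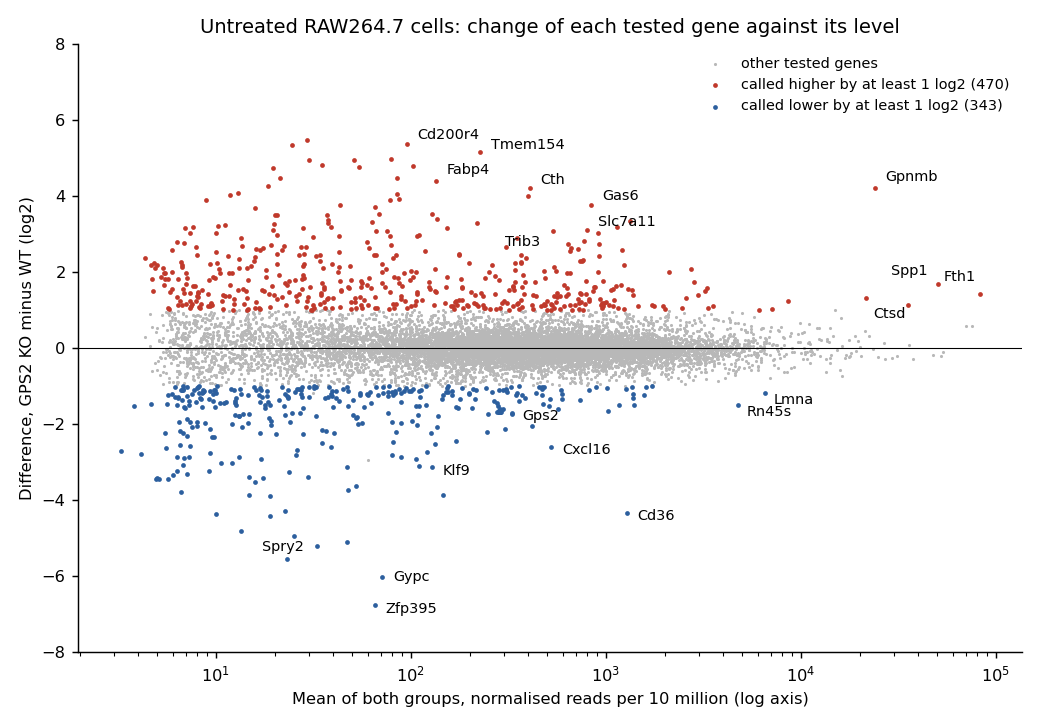
Each point is 1 of the 11478 tested genes, placed by its mean level over both groups (x, normalised reads, log axis) and its KO minus WT difference (y, log2). Red and blue points are the 470 genes higher and 343 lower by at least 1. Gpnmb, Spp1, Fth1 and Ctsd lie to the right among the red points, and Zfp395, Gypc and Spry2 lie lowest.

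The 15 largest rises among genes with a mean of at least 50 and no overlap included all 3 measured Cd200r genes, whose products are immunoglobulin-like receptors of myeloid cells. Cd200r1, the inhibitory receptor for CD200, stood at 44.4, 39.5, 48.7 and 53.6 in the WT libraries and 757, 723, 796 and 737 in the KO libraries (log2 4.00 ± 0.0782, adjusted p = 1.14e-19). Cd200r4, an activating relative, went from 2.88, 4.47, 5.73 and 2.00 to 199.9, 189.6, 182 and 175 (log2 5.36). Cd200r2 was close to silent in WT cells, with 3 reads in all 4 libraries together against 411 in KO, a ratio of 143 with a 95% counting interval of 48.4 to 694. That the lowest KO library lay above the highest WT library in each of these genes follows from the choice of genes with no overlap.

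Gpnmb, a glycoprotein of lysosomes and the macrophage surface, was among the most changed of the abundant genes. It stood at 2390.4, 2481, 2548 and 2465 in the WT libraries and 46856, 44636, 45258 and 44895 in the KO libraries, an 18.4-fold rise (log2 4.20 ± 0.03, adjusted p = 2.92e-27). Fabp4, a cytosolic fatty acid carrier, stood at 11.5, 11.5, 11.5 and 11.0 in the WT libraries and 248, 264, 267 and 251 in the KO libraries (22.6-fold, log2 4.38 ± 0.096, adjusted p = 7.04e-19). Cth, the enzyme that makes cysteine from cystathionine, stood at 42.1, 37.6, 42.5 and 39.6 in the WT libraries and 769, 742, 813 and 761 in the KO libraries (19.1-fold, log2 4.22 ± 0.0646, adjusted p = 2.24e-21). Slpi, which encodes an inhibitor of leukocyte proteases, went from 7.50, 5.10, 5.73 and 7.01 in WT to 197, 226, 191 and 186 in KO libraries (log2 4.78), and the TREM family receptor Trem3 from 6.58 ± 1.59 to 164 ± 10.2 (log2 4.47). The rest of the 15 were the membrane protein gene Tmem154 (5.15), the scramblase relative Plscr4 (4.98), the GTPase regulators Arhgap24 (4.95) and Tbc1d9 (4.94), the adhesion scaffold Nedd9 (4.76), the adhesion molecule Opcml (4.06) and Gm10825 (4.81).

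Some genes were lost almost completely. Zfp395, a zinc finger factor, stood at 137, 127, 132 and 127 in the WT libraries and 0, 0, 1.1 and 0 in the KO libraries: 966 reads in WT and 2 in KO libraries, a ratio of 464 (95% counting interval 128 to 3840). Spry2, an inhibitor of receptor tyrosine kinase signalling, stood at 68.1, 69.5, 64.9 and 56.6 in the WT libraries and 1.31, 0.965, 0 and 1.18 in the KO libraries, with 476 and 6 reads and a ratio of 76.3 (34.8 to 209). Both genes were named for this separation, so the distance of every KO library from the WT range follows from the choice. In all, 7 tested genes had 0 reads in every KO library, and 0 genes the reverse. Of these 7, Adgrl2, an adhesion G protein-coupled receptor, was at least 111-fold lower and Lpar1, the lysophosphatidic acid receptor, at least 64.4-fold lower, taking 3 reads over the 4 KO libraries as the floor. Counting intervals and floors cover counting error only.

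Cd36, the scavenger receptor that takes up oxidised lipoprotein and fatty acids, fell in every KO library. It stood at 2408, 2314, 2470.1 and 2578 in the WT libraries and 126, 106, 142 and 108 in the KO libraries, a 20.3-fold fall (log2 -4.34 ± 0.0761, adjusted p = 1.97e-16). Klf9, a Krüppel-like factor, stood at 236, 219, 230 and 240.4 in the WT libraries and 24.2, 28, 25.9 and 23.6 in the KO libraries (9.09-fold lower, log2 -3.14 ± 0.089, adjusted p = 4.24e-17). Gypc, a membrane skeleton protein (log2 -6.03), Gja1, a gap junction channel (-5.10), and Scarf1, a scavenger receptor (-3.63), also fell to a small share of their WT level. The other members of the 15 largest falls were Epop (-3.86), an adaptor of Polycomb and elongin complexes, Svil (-3.72), which binds actin, Trp53i11 (-3.40), Nptxr (-3.14), Zmynd15 (-3.11), the collagen gene Col18a1 (-2.92), Dmwd (-2.87) and the invadopodium scaffold Sh3pxd2a (-2.82). Whether reads were counted by strand is not given in the sources used here, so reads of overlapping pairs, such as Zmynd15 and Cxcl16, Nptxr and Npcd or Ddit3 and Mars, cannot be told apart.

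**Figure D2:**
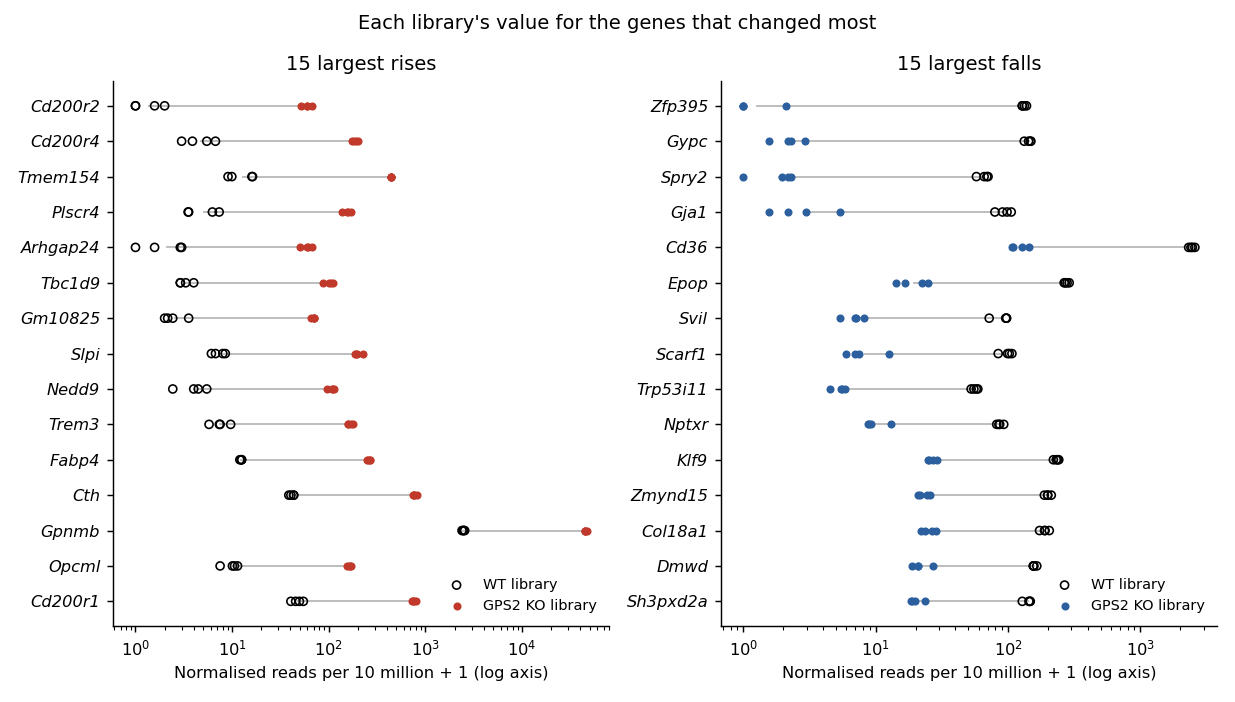
Each row is 1 of the 15 largest rises (left) or falls (right), with 1 point per library (normalised reads + 1, log axis), open for WT and filled for KO. A line joins the group means. The genes were chosen among those with no overlap, so the separation of the 4 KO from the 4 WT libraries follows from the choice.

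In terms of reads rather than ratios, the largest gains were in ferritin, osteopontin and lysosomal genes. Fth1, the ferritin heavy chain that stores iron, stood at 50170.1, 42399.6, 43299 and 43082 in the WT libraries and 129497, 114002, 122049 and 115895 in the KO libraries (log2 1.43 ± 0.0569, adjusted p = 2.47e-09). Spp1, the secreted protein osteopontin, rose from 23924 ± 1341 to 76902 ± 3513 (log2 1.69), Ctsb and Ctsd, which encode cathepsins B and D, by 1.13 and 1.31, Psap, the precursor of the saposins, by 0.78, Cybb, the catalytic chain of the phagocyte NADPH oxidase, by 0.99 and Mpeg1, perforin-2, by 1.24. Lyz1 (0.57) and Lyz2 (0.58) also gained, but they are near-identical lysozyme copies whose reads may be split between them. The largest losses were in Rn45s, S100a4 (-0.73), a calcium-binding protein, the intermediate filament genes Vim (-0.59) and Lmna (-1.19), Pfn1 (-0.64), an actin monomer binder, the elongation factors Eef1a1 (-0.28) and Eef2 (-0.18) and the glycolytic genes Pkm (-0.22), Ldha (-0.27) and Aldoa (-0.29). Rn45s is the ribosomal RNA precursor, which poly(A) selection should leave behind. It stood at 4575, 11211, 8318 and 4521 in the WT libraries and 2184, 2775, 2204 and 2307 in the KO libraries (log2 -1.49 ± 0.329, adjusted p = 0.00715), with WT libraries 2 and 3 above the others.

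Among lists with at least 10 tested members, that of the integrated stress response and ATF4 targets had the highest share of genes that rose, 91.4%. In this pathway, stress kinases slow translation and the factors ATF4 and CHOP (Ddit3) switch on amino acid transport and synthesis. Of 35 tested genes, 32 rose, 19 of them by at least 1 on the log2 scale, Cbs (-0.90) fell and 2 did not pass, with a median change of 1.03 against 0.01 over all tested genes. Slc7a11, the cystine importer, stood at 144, 159, 181 and 185 in the WT libraries and 1431, 1432, 1475 and 1428 in the KO libraries (log2 3.11 ± 0.0632, adjusted p = 1.32e-18). Trib3, a pseudokinase induced by CHOP, stood at 108, 118, 126 and 102 in the WT libraries and 965, 1016, 899.8 and 967 in the KO libraries (log2 3.07 ± 0.0631, adjusted p = 2.53e-19). For both genes all KO libraries lay several-fold above all WT libraries. Ddit3 itself rose by 1.97, Gdf15, a secreted stress cytokine, by 3.51, Aldh1l2, an enzyme of mitochondrial folate metabolism, by 2.41, Chac1, which degrades glutathione, by 1.78 and Atf4 by 0.66. Of 20 cytosolic aminoacyl-tRNA synthetases, which charge tRNAs with amino acids, 15 rose and 3 fell (median 0.61), Aars, Nars and Cars by 1.12, 1.03 and 1.02. The counts were 32 and 1, and 15 and 4, with library totals.

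Other stress pathways moved less. Of 24 unfolded protein response genes, 14 rose and 2 fell, with a median of 0.14. The sensor Ern1 rose by 1.24, and its target Xbp1 fell by 0.40 on the log2 scale. Of 16 heat shock genes, 4 rose and 7 fell, Hspa1b, which has a near-identical neighbour with which it may share reads, from 60.5 ± 6.80 to 12.6 ± 2.12 (log2 -2.18). The 24 targets of the antioxidant factor NRF2 split into 10 higher and 8 lower (5 and 6 in the fit of all 16 libraries), and their median changed sign with library totals (0.02 and -0.06). Of 20 p53 targets, 15 rose and 3 fell (median 0.50). Gadd45a, a growth arrest gene, rose from 19.8 ± 3.49 to 237 ± 18.4 (log2 3.53), while the death gene Pmaip1 fell by 1.09 on the log2 scale.

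Promoters of 4 stress response genes are shown because these genes rose together and hold the ATF4 and CHOP element in its searched form, TGATGNAA on either strand. The windows run from 250 bases before the annotated start to 25 bases after its first base, in the NCBIM37 (mm9) assembly, and each is written along its gene's strand with the element in capitals.
Slc7a11, chr3:50247511-50247785, reverse strand: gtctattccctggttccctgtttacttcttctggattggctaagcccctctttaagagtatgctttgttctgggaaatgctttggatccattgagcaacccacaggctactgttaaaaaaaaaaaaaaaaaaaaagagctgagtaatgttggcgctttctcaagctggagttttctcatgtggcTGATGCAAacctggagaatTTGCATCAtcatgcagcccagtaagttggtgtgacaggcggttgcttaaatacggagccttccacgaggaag
Trib3, chr2:152169772-152170046, reverse strand: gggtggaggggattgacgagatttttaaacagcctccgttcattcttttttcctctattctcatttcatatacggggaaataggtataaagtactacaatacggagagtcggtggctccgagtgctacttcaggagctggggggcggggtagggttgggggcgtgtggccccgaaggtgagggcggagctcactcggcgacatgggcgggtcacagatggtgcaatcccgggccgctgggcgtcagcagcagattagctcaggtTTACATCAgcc
Chac1, chr2:119176728-119177002, forward strand: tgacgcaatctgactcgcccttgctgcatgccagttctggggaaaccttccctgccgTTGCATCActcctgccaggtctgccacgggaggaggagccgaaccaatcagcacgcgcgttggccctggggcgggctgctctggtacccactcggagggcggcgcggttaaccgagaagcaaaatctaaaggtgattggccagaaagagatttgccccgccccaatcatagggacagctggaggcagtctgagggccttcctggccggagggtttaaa
Pck2, chr14:56158853-56159127, forward strand: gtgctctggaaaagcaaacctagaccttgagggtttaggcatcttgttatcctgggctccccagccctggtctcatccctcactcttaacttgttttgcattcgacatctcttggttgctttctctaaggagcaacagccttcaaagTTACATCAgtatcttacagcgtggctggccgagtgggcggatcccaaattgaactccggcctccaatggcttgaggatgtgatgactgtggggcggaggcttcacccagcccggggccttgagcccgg
Slc7a11 (3.11) holds the element at 2 places, 66 and 47 bases before the start, and Pck2, the mitochondrial PEP carboxykinase (1.62), at 1 place 103 bases before it. In all, 8 of the 35 stress response promoters (22.9%) and 5 of the 20 synthetase promoters (25%) held it, against 239 of 11462 promoters of tested genes (2.09%). The stress response list was chosen to hold ATF4 targets, so a high share there is built in and is not a result of these data. The synthetase share depends on the list's members and the genome sequence, not on the RNA differences, so it is not one either. Of the genes that rose by at least 1, 29 of 470 held the element (6.17%), and of those that fell, 7 of 343 (2.04%). A match is a description of the letters and does not show that a factor was bound.

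Lysosomal genes rose across the enzymes, the membrane and the proton pump. The lysosome breaks down what macrophages engulf, and factors of the MiT/TFE family are known to switch its genes on. Of 103 tested genes in 5 lists, 72 rose, 14 fell and 17 did not pass, with a median of 0.30. The counts were 12 of 15 proteases higher, 22 of 34 glycosidases, sulfatases and lipases, 18 of 24 membrane proteins, 12 of 19 subunits of the vacuolar proton pump and 9 of 12 MiT/TFE factors, partners and targets. With library totals they were 11, 18, 17, 12 and 9. In the fit of all 16 libraries they were 12, 15, 13, 10 and 8, where 2122 of all 11791 tested genes were higher. Among the proteases, the cathepsins E (2.01), C (1.38) and K (1.26) rose besides B and D, while cathepsin H (-1.10) fell. Ctsd stood at 12749.8, 12320.5, 12449 and 12056 in the WT libraries and 31498, 31296, 29473 and 30817 in the KO libraries, with no overlap (log2 1.31 ± 0.0295, adjusted p = 1.01e-18).

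Hpse, which cuts heparan sulfate, rose from 2.50 ± 0.637 to 37.9 ± 3.75 (log2 3.49), and Gla, alpha-galactosidase, by 1.45. In the membrane, the channel Mcoln2 (3.17) and the chloride exchanger Clcn7 (1.09) rose. In the pump, the subunits Atp6v0a1 (1.34) and Atp6v1d (0.97) rose. The factors moved apart. Tfeb stood at 419, 442, 418 and 395 in the WT libraries and 206, 196, 187 and 184 in the KO libraries (log2 -1.11 ± 0.0564, adjusted p = 5.42e-13), so every KO library was below every WT library. Mitf fell as well (-0.44), Tfe3 did not pass the test (-0.02) and Tfec rose by 1.24. The folliculin partners Fnip2 and Fnip1 rose by 2.00 and 0.94. Of 27 autophagy genes, 13 rose (8 in the fit of all 16 libraries) and 4 fell (median 0.10), Tecpr1 by 2.54 and the cargo receptor Sqstm1 by 0.80, while Map1lc3a fell by 1.12 on the log2 scale.

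Promoters of 3 lysosomal genes that rose are shown with the E-box TCACGTG, on either strand, the core to which MiT/TFE factors bind, in capitals. Where both strands match, the 2 matches overlap in 1 palindromic stretch.
Gla, chrX:131135520-131135794, reverse strand: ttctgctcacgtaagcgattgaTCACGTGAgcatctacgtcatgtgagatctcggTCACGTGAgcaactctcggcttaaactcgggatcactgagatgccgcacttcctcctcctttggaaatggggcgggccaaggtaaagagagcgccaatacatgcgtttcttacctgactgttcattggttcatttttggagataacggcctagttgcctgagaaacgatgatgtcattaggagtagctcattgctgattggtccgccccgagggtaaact
Ctsd, chr7:149573708-149573982, reverse strand: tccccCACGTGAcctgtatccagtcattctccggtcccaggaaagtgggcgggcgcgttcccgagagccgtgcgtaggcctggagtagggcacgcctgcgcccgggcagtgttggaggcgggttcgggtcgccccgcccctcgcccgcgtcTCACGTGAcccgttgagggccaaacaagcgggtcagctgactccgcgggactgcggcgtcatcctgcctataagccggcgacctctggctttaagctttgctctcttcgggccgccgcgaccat
Ctsb, chr14:63741049-63741323, forward strand: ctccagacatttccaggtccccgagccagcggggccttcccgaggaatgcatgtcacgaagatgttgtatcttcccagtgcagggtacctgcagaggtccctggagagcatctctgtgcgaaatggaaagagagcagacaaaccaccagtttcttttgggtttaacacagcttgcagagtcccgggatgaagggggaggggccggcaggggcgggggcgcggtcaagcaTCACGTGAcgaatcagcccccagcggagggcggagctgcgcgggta
The E-box was present in 22 of the 103 lysosomal promoters (21.4%), among them 6 of 19 proton pump promoters (31.6%), and in 694 of 11462 promoters (6.05%). The list of MiT/TFE factors, partners and targets was chosen for this family, so its 2 of 12 promoters (16.7%) are not a result of these data. The other lysosomal shares depend on the lists' members and the genome sequence, not on the RNA differences, so they are not either. The E-box was found in 25 of the 470 promoters of genes that rose by at least 1 (5.32%) and in 11 of the 343 of genes that fell (3.21%). Of the 22 lysosomal genes that held it, Pip4p1 (-0.13) and Glb1 (-0.16) fell.

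**Figure D3:**
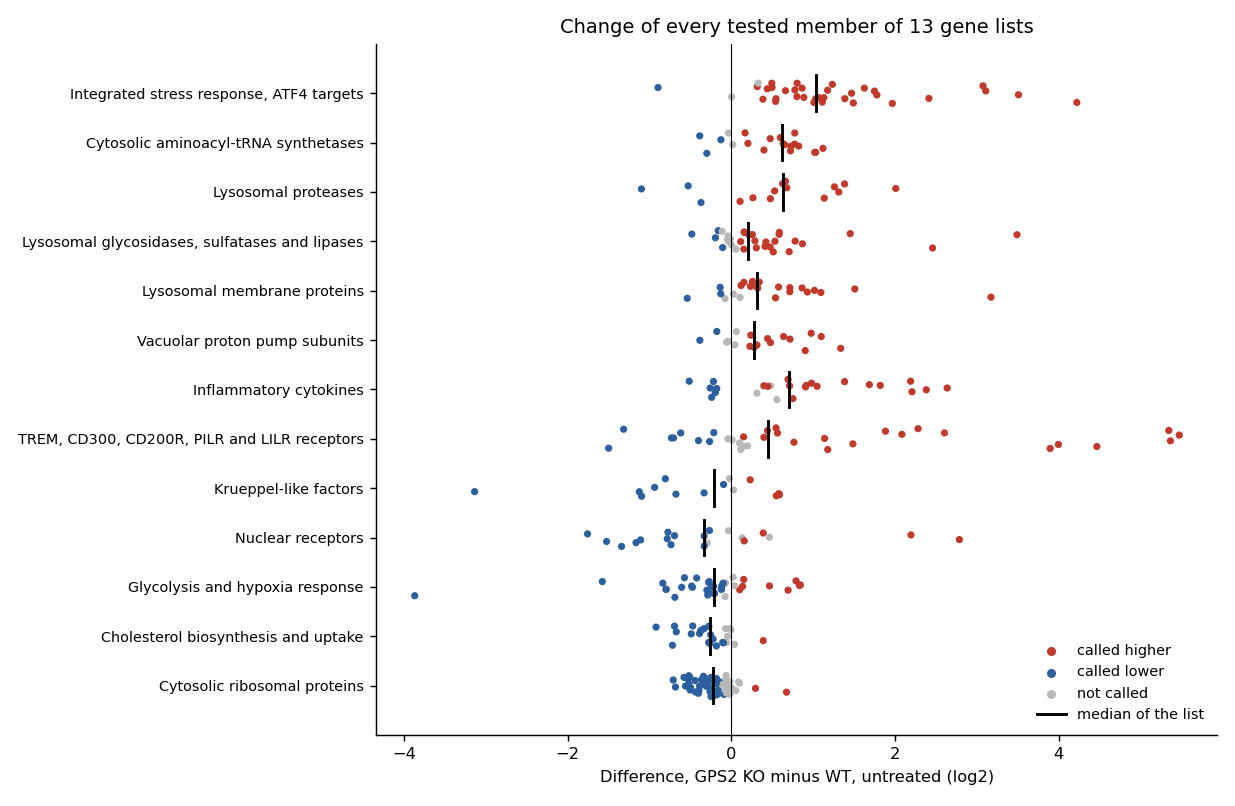
Each point is 1 tested member of 1 of 13 gene lists, placed by its KO minus WT difference (x, log2) and coloured by call, with a bar at the list's median. The stress response points lie almost wholly to the right of 0 and the cholesterol and ribosomal protein points mostly to the left, within 1 unit of it.

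Inflammatory genes were higher without any stimulus, though not as a block. Of 26 tested cytokines, 16 rose and 6 fell (median 0.70). Il1a, a proinflammatory alarmin, stood at 23.7, 10.8, 15.7 and 15.0 in the WT libraries and 116, 69.9, 104 and 134 in the KO libraries (log2 2.64 ± 0.22, adjusted p = 1.23e-07), and its KO range, though wide, did not touch that of WT. Il1rn, the natural antagonist of interleukin-1, stood at 476, 434, 434 and 427 in the WT libraries and 2006, 1934, 2118 and 2036 in the KO libraries (log2 2.19 ± 0.0438, adjusted p = 1.60e-19). Tnfsf13b (BAFF) rose by 2.21. Csf2 (2.38) and Il6 (1.82) rose but stayed at low levels. Csf2 went from 0.805 ± 0.849 to 7.88 ± 2.21 and Il6 from 1.83 ± 0.735 to 9.16 ± 3.44. Chemokines split evenly into 7 higher and 7 lower of 16. The monocyte attractants Ccl3 (1.75), Ccl4 (1.97) and Ccl6 (1.56) rose, and Cxcl16 (-2.59), Cxcl14 (-2.16) and Cxcl11 (-1.92) fell. Cxcl16, which is also a scavenger receptor for oxidised lipid, stood at 967, 919.8, 872 and 846 in the WT libraries and 154, 155, 157 and 129 in the KO libraries (log2 -2.59 ± 0.0627, adjusted p = 3.61e-18).

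Among 32 genes of Toll-like and related receptors and their signalling, 18 rose and 5 fell, with Clec4n (Dectin-2, 2.58), Tlr8 (1.70), Clec4e (Mincle, 1.54) and Tlr13 (1.29) in front. The NF-kB subunits, inhibitors and feedback genes split into 13 higher and 14 lower of 36 (10 and 8 in the fit of all 16 libraries), none by as much as 1, and their median changed sign with library totals (0.04 and -0.04). Interferon-stimulated genes did the same: 18 higher and 15 lower of 58, with medians of 0.01 and -0.06. Mx1 rose by 1.16 and Irf7 fell by 0.81 on the log2 scale. Of 13 tested genes of MHC class II and costimulation, which include ligands of T cell costimulation and inhibition, 8 rose and only Vsir fell. Cd86, a costimulatory ligand, stood at 3.46, 4.47, 5.73 and 4.01 in the WT libraries and 34.6, 30.4, 35.3 and 34.9 in the KO libraries (log2 2.70 ± 0.192, adjusted p = 1.46e-10), and Cd80 and Cd274 (PD-L1) rose by 2.71 and 2.08. Vsir, which encodes the inhibitory ligand VISTA and was the most abundant of these 4, fell from 1456 ± 45.7 to 809.9 ± 18.3 (log2 -0.85). Nos2, the inducible nitric oxide synthase, rose by 1.47, and Ass1, which regenerates its substrate, fell by 1.49 on the log2 scale.

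Surface receptors of the immunoglobulin superfamily mostly rose, some of them from close to 0. Of 33 tested TREM, CD300, CD200R, PILR and LILR receptor genes, 19 rose, 13 of them by at least 1, and 8 fell. Besides the Cd200r genes, Treml2 (5.34) and Treml4 (3.89) rose, and Treml2 had close to no reads in WT cells (1.15, 0, 0 and 0) against 49.0, 57.9, 35.3 and 53.8 in KO cells. Of 17 Fc receptor and complement genes, 9 rose and 4 fell. The inhibitory Fc receptor Fcgr2b stood at 92.9, 84.2, 76.8 and 75.1 in the WT libraries and 613, 588, 624 and 651 in the KO libraries (log2 2.90 ± 0.0679, adjusted p = 1.99e-18). The activating Fcgr3 rose by 1.40. Among receptors of cytokines and growth factors (20 higher and 11 lower of 37), Flt1 (3.28), Il7r (3.09), Cxcr4 (2.46) and Csf3r (2.45) rose. The TAM receptor ligands, bridges between dying cells and phagocytes, rose: Gas6 stood at 121, 108, 115 and 117 in the WT libraries and 1551, 1585, 1555 and 1599 in the KO libraries (log2 3.76 ± 0.0474, adjusted p = 1.19e-22), and Pros1 rose by 2.25. Among G protein-coupled receptors and their regulators, 16 rose and 10 fell of 32, the niacin receptor Hcar2 by 2.98 and the adenosine receptor Adora3 by 2.60. Of 18 osteoclast genes, 12 rose and 5 fell, the integrin Itgb3 by 2.18, while Ocstamp, needed for cell fusion, fell by 3.01 on the log2 scale.

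Transcription factor genes moved in both directions, as all tested genes did (31.8% higher, 31% lower). The shares higher and lower were 53.8% and 30.8% of AP-1, ATF and MAF genes and 38.2% and 44.1% of lineage factors. They were 28.6% and 52.4% of Egr and other immediate early genes and 28.6% and 57.1% of Krüppel-like factors. Maf, which encodes the factor c-Maf, stood at 17.9, 15.9, 18.1 and 16.5 in the WT libraries and 85.6, 73.8, 81.1 and 81.0 in the KO libraries (log2 2.17 ± 0.117, adjusted p = 1.45e-12), and all KO libraries lay above all WT libraries. Jun rose by 1.21 and Atf3 by 1.23, while Fos fell by 1.72 on the log2 scale, within a list of 26 AP-1, ATF and MAF genes of which 14 rose and 8 fell. Of 21 Egr and other immediate early genes, 6 rose and 11 fell, among them Nr4a1 (-2.60), Arc (-1.85) and Egr2 (-1.27). Of 14 Krüppel-like factors, 4 rose and 8 fell, Klf2 and Klf4 by -1.13 and -0.81. Among lineage factors (13 higher and 15 lower of 34), Gfi1, a repressor of granulocyte and stem cell genes, rose from 5.57 ± 2.49 to 69.1 ± 3.83 (log2 3.50), and Runx2 rose by 2.30. Runx3 (-3.31), Id3 (-2.47) and Cebpa (-1.32) fell.

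Nuclear receptors, through which the complex is often brought to DNA, were mostly lower. Of 20 tested, 12 fell and 4 rose, with a median of -0.33, the lowest of all lists with at least 10 tested members. The retinoic acid receptor Rara fell by 1.53 on the log2 scale and its relative Rarb rose by 2.19. Thra (-1.34) and Nr2f6 (-1.17) fell, as did Ahr (-1.76), which is a ligand-activated factor of another family kept in the same list. Pparg, the fatty acid receptor known to drive Cd36 and Fabp4, stood at 17.3, 15.9, 14.3 and 8.51 in the WT libraries and 5.88, 5.79, 6.07 and 5.32 in the KO libraries (log2 -1.11 ± 0.236, adjusted p = 3.81e-04), lower in all KO libraries. Its list split into 10 higher and 12 lower of 30, and the fatty acid carriers Fabp4 and Fabp5 (2.01) rose where Cd36 fell. Of 14 LXR and cholesterol efflux genes, 5 rose and 6 fell. The efflux pump Abca1 stood at 46.1, 51.7, 51.5 and 50.6 in the WT libraries and 219, 191, 203 and 245 in the KO libraries (log2 2.08 ± 0.0872, adjusted p = 2.33e-14) and Abcg1 rose by 0.73, while Arl4c (-2.05) and Apoe (-0.92) fell.

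More genes of growth and energy supply fell than rose, by small amounts. Of 25 cholesterol synthesis and uptake genes, 18 fell and 1 rose (median -0.26), among them Insig1 (-0.92) and Stard4 (-0.67). Of 35 glycolysis and hypoxia genes, 23 fell and 8 rose (median -0.22). Egln3, an oxygen-sensing hydroxylase, stood at 30.6, 29.3, 27.7 and 26.5 in the WT libraries and 0.653, 0.965, 2.21 and 0.591 in the KO libraries (log2 -3.87 ± 0.263, adjusted p = 6.54e-11), while the rest of the list lay between -1.58 and 0.84. Of 62 cytosolic ribosomal protein genes, 45 fell and 2 rose (median -0.23). Rps14 fell by 0.71 on the log2 scale and Rps28 rose by 0.67. Of 56 nuclear-encoded oxidative phosphorylation genes, 24 fell and 8 rose. Of 48 cell cycle genes, 27 fell and 9 rose, none by as much as 1 except the cyclin Ccnd2, which rose from 1.63 ± 1.40 to 18.3 ± 4.62 (log2 3.04). With library totals the falls in these 5 lists numbered 21, 25, 51, 32 and 31. In the fit of all 16 libraries these falls numbered only 10, 17, 11, 5 and 14, where 2058 of all 11791 tested genes fell. Ribosomal proteins then lay near the share of all genes and oxidative phosphorylation below it. The main fit had 72%, 65.7%, 72.6%, 42.9% and 56.2% of these lists lower, against 31% of all tested genes. Changes also went with transcript length: the 2870 shortest transcripts had a median of -0.06 and the 2870 longest one of 0.09, with a Spearman rho of 0.149 across 11478 genes, which are not independent. The part of length in the fall of the ribosomal protein genes was not tested.

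In the list of iron, heme and copper genes 16 rose and 5 fell of 26, the copper transporter Atp7a (0.69) among those that rose. Besides Fth1, the iron exporter Slc40a1 (ferroportin) stood at 13.8, 7.02, 8.59 and 6.51 in the WT libraries and 22.2, 30.4, 28.7 and 23.6 in the KO libraries (log2 1.49 ± 0.213, adjusted p = 4.17e-06), and the transferrin receptor Tfrc rose by 0.73. Among eicosanoid genes the prostaglandin synthases Ptgs1 (2.82) and Hpgds (1.65) rose, in a list that split into 6 higher and 6 lower of 16. In a list of MAP kinase phosphatase (Dusp), Spry and Spred genes, which also holds other genes of growth factor signalling such as the ETS factor Etv1 (0.90), 11 fell and 4 rose of 21 tested (6 and 3 in the fit of all 16 libraries). Dusp1 fell by 0.96 and Dusp6 rose by 1.06. The suppressor of cytokine signalling Socs1 fell by 1.58 on the log2 scale.

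**Figure D4:**
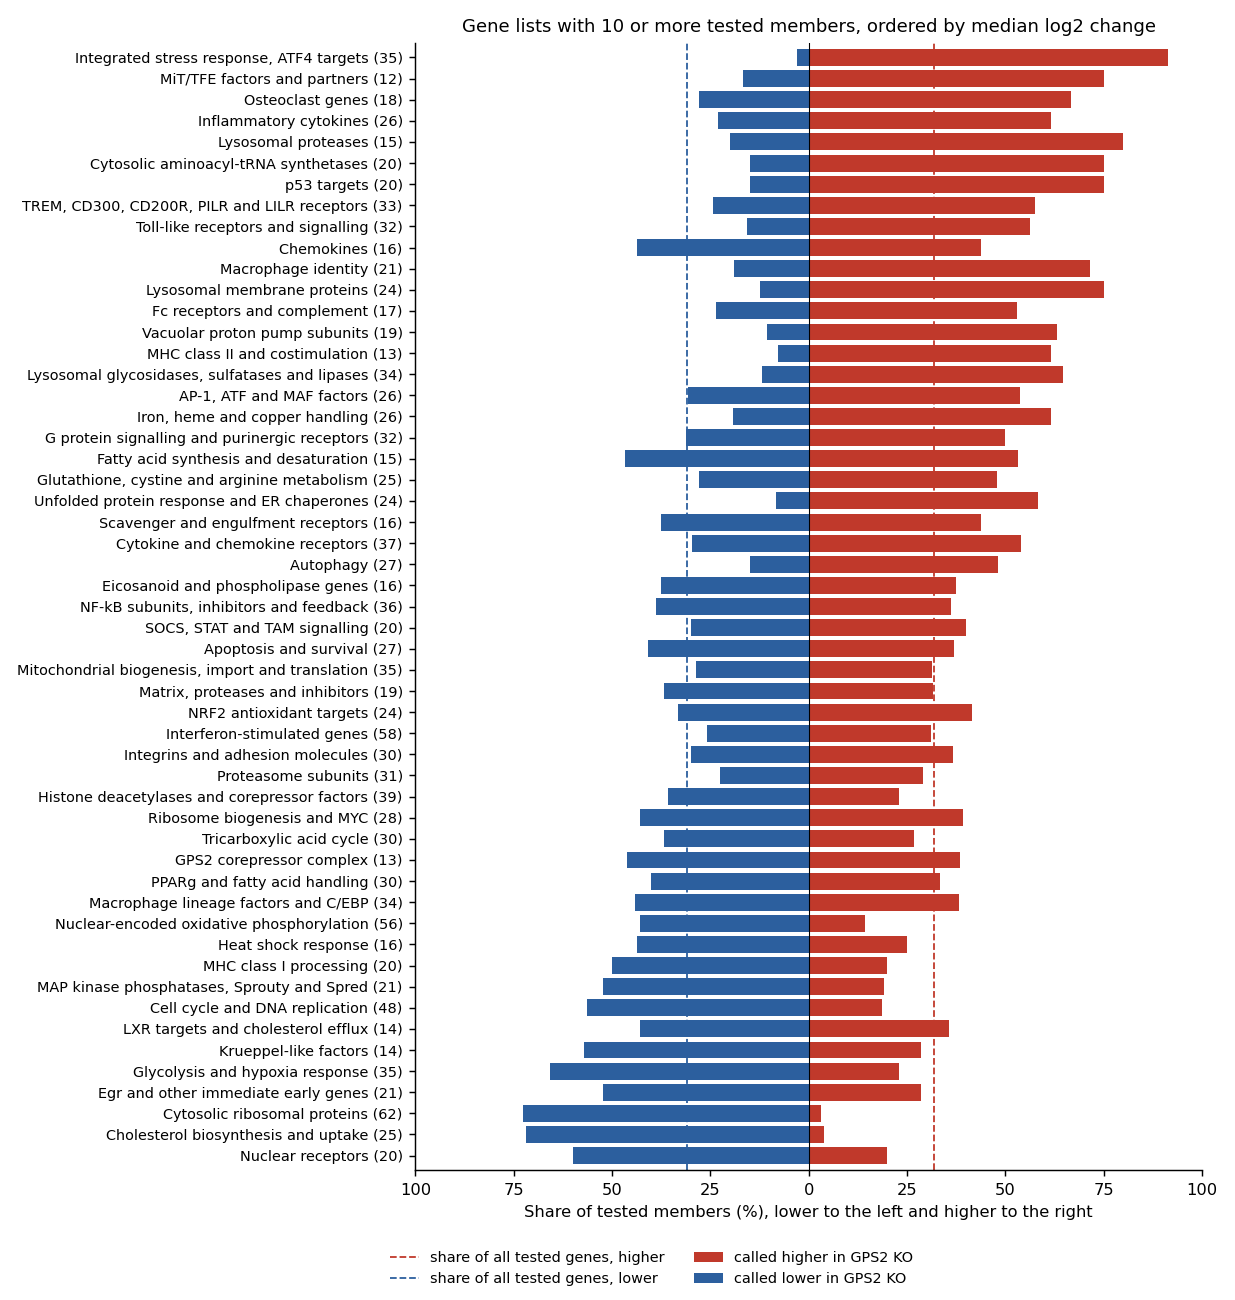
Each row is a gene list with at least 10 tested members (number in brackets), and bars give the share of members called higher (right, red) and lower (left, blue) in percent. Dashed lines mark the shares among all tested genes, 31.8% and 31%. The stress response list reaches 91.4% higher, and the ribosomal protein list 72.6% lower.

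Some changes came in runs of neighbouring genes. The longest run of tested genes that moved by at least 1 in the same direction held 22 gamma protocadherin genes, cell adhesion molecules in 1 cluster on chromosome 18 (37821429 to 38001526), all lower with a median of -1.67. These genes share their last exons, so their reads cannot be assigned to 1 member and the run counts as a single measurement. The Cd200r1, Cd200r4, Cd200r2 and Ccdc80 genes on chromosome 16 (44765849 to 45128037) rose by a median of 4.68. The Trem3, Treml4, Treml2 and B430306N03Rik genes on chromosome 17 (48386896 to 48465836) rose by 4.18. On chromosome 11, Ccl6, Ccl3, Ccl4 and Wfdc17 (83401388 to 83519771) and Myo1d, Tmem98, Ccl2 and Ccl7 (80295629 to 81861025) rose by 1.66 and 1.76. The NKG2D ligand genes Raet1e, Raet1a, Raet1b and Raet1c on chromosome 10 rose by 2.15, though these are close copies that may share reads. Cxcl16, Zmynd15 and Tm4sf5 on chromosome 11, of which the first 2 overlap on opposite strands, fell by a median of 2.63, and Dmwd, Dmpk and Six5 on chromosome 7 fell by 2.24. Medians of whole chromosomes stayed between -0.07 (chromosome 7) and 0.08 (chromosome 1), or between -0.15 and 0.01 with library totals for these 2.

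Chromatin accessibility, measured by ATAC-seq in untreated control and KO cells (3 libraries each), gave a readout that the RNA call did not use. ATAC-seq marks open DNA by where a transposase can insert. Of 73206 sites, 2960 were more open (4.04%) and 2311 less open (3.16%) in KO cells by limma at an adjusted p under 0.05. These 5271 calls were 2539 when the variance was not allowed to depend on the mean, and 3189 and 3345 without control replicate 1 or 3. Within 1 kb of the start of genes whose RNA rose by at least 1, 82 of 386 sites were more open (21.2%) and 7 less (1.81%). Near genes whose RNA fell by at least 1, 3 of 251 sites were more open (1.2%) and 84 less (33.5%). Near genes with no RNA call the counts were 33 and 71 of 3416 (0.966% and 2.08%). Of genes with any site, 215 of 461 that rose had a more open one (46.6%) and 133 of 307 that fell had a less open one (43.3%). Sites called the other way were held by 25 (5.42%) and 17 (5.54%) of them. Among 3944 genes with no RNA call, 8.54% had a more open site and 8.82% a less open one. A gene with more sites has more chances of a called one, and these shares were not adjusted for that.

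For single genes the sites were often of 1 kind. All 15 of the largest rises had at least 1 more open site and 0 had a less open one, 67 of 130 sites in all. Gpnmb had 11 of 11 sites more open. The site over its start, chr6:48985675-48987892, rose by 0.67 on the deposited log2 scale. Fabp4 had 4 of 4 more open, Nedd9 9 of 14 and Arhgap24 12 of 21. Of the 15 largest falls, 14 had sites, 10 of these had a less open site and 0 a more open one. Klf9 had 4 of 4 less open, with a change of -0.78 at its start (chr19:23214775-23216010), Spry2 3 of 3, Zfp395 4 of 7 and Cd36 5 of 13, with -0.65 at its start (chr5:17355340-17356654). Of the stress response genes, Slc7a11 had 4 of 20 sites more open and Cth 1 of 11, while Trib3 had 0 of 1 and Chac1 0 of 6 called. Over the whole list 12 of 198 sites were more open and 2 less, and of its 33 promoter sites 3 and 1, where 208 and 289 of the 9661 promoter sites of all tested genes were. Fth1 had 4 of 10 sites more open, but the one at its start was less open (-0.39).

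**Figure D5:**
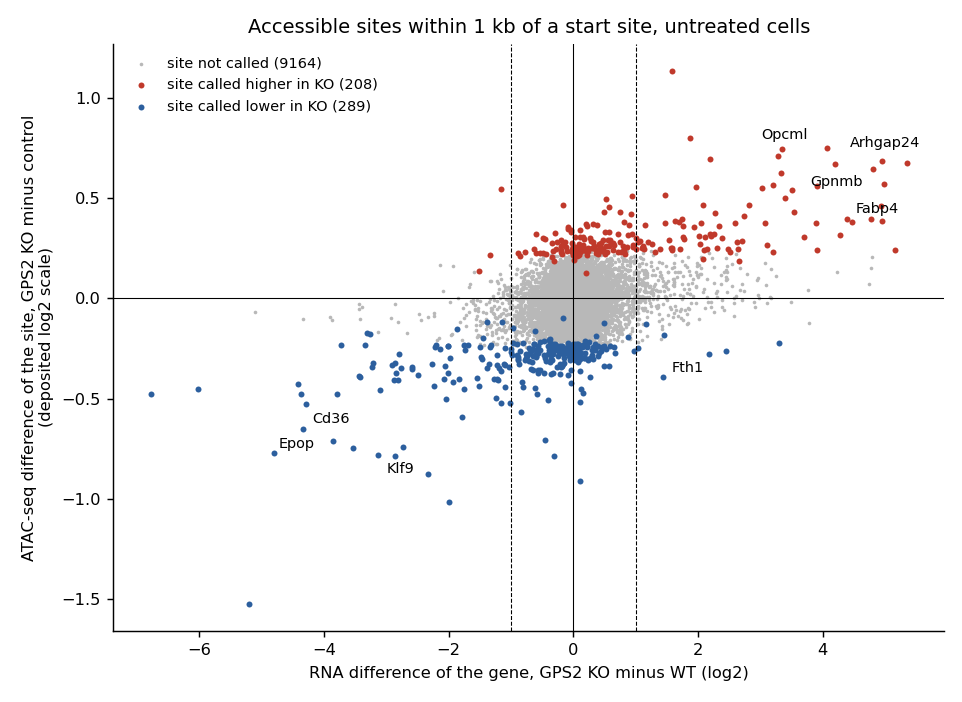
Each point is an accessible site within 1 kb of a transcription start, placed by the RNA difference of its gene (x, log2) and its own ATAC-seq difference (y, deposited log2 scale), both KO minus WT or control. Dashed lines mark 1 log2 in RNA. Of 208 more open sites (red), 82 belong to genes higher and 3 to genes lower by at least 1, and of 289 less open sites (blue), 7 and 84. The others belong to genes not called or changed by less than 1.

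Whether the differences seen without LPS persist with it was asked in the 16 RNA libraries. Of the 470 genes higher by at least 1, 322 were also called higher after 6 hours with LPS, 40 were called lower and 108 did not pass. Of the 343 lower genes, 271 were also called lower, 6 higher and 66 neither. The shares of all tested genes called higher or lower with LPS are not reported here, so these counts have no background beside them. The difference between the 2 effects was itself called for 2436 of 11791 genes (20.7%), or 4620 when WT LPS replicate 4 was left out. It was called for 241 of the 470, larger with LPS in only 21, and for 125 of the 343, larger in only 18. Without that replicate these counts were 293 and 28, and 153 and 21. Since these genes were chosen for a large untreated difference, which enters the difference tested, their counts lean to smaller effects with LPS.

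Of the named genes that differed by at least 1 without LPS, Abca1 and Chac1 were called by at least 1 in the other direction with LPS. On the scale of all 16 libraries, resting Abca1 was 43.1 ± 2.50 (WT) against 185 ± 20.4 (KO), and LPS-treated Abca1 766 ± 191 (WT) against 240 ± 24.1 (KO; mean ± SD, n = 4 each). Its KO effect was 2.07 without and -1.63 ± 0.153 with LPS, a difference of -3.71 (limma adjusted p = 8.96e-09). Resting Chac1 was 109.5 ± 7.10 (WT) against 379 ± 34.1 (KO), and LPS-treated Chac1 269 ± 21.1 (WT) against 107 ± 7.24 (KO), a difference of -3.09 (adjusted p = 5.14e-11). Both genes were thus higher in KO cells at rest and lower after LPS.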

How the data were processed

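Per the labels, poly(A) RNA was sequenced from untreated WT and GPS2 KO RAW264.7 cells (4 libraries each), from the same cells with LPS, and ATAC-seq was made from untreated cells (3 libraries per genotype). Per the file headers, the authors counted reads per RefSeq transcript with HOMER and deposited them scaled to 10000000 mapped reads, with decimal commas. HISAT2, Bowtie2, BWA, MACS2, DESeq2, edgeR and build mm9 stand in the submitters' processing notes, without roles or versions. For ATAC-seq the authors deposited values on a log2 scale for merged MACS2 peaks, whose exact transformation is not given in the sources used here, so a change of 1 is 1 unit of that scale. The authors also deposited log2 fold changes and adjusted p-values, which were set beside the tests and used for nothing else.

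Whole reads were recovered from the low RNA values (tolerance 0.05 of a read, tested up to 200 reads). Levels were divided by trimmed mean of M values factors (0.963 to 1.03), and log2(level + 1) was tested with limma 3.58.1 in R 4.3.3, with a trend and robust moderation, two-sided, over genes with 10 reads at the median depth in 4 libraries and 15 in all. The fit held the 8 untreated libraries, and that of the LPS interaction all 16. A pseudocount of 1 understates the change of low genes. ATAC-seq values were tested in the same way. On simulated RNA counts of 11470 genes, 50 of 50 genes raised and 50 of 50 lowered by 1 log2 were recovered, and 39 and 36 of 50 at 0.5. The changed genes were drawn from those above 50 reads, and all other genes were left unchanged. Every gene had the same spread beyond counting noise. The data differ in these settings, so the rates check the procedure and do not carry over to this comparison. Sites were joined to the nearest start in the deposited table, and promoters were read with pysam 0.24.0.

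The genes and 59 lists were chosen with earlier results of these data known. Genes were named by rule: the complex, the 15 largest rises and falls among genes with a mean of at least 50 and no overlap, the 10 largest gains and losses in reads, up to 6 members per list, genes at 3 reads or fewer in every library of a group, and runs of neighbours. Adgre1, Csf1r, Mertk, S100a8, Camp, Cd4, Cd79a, Mitf, Tfe3, Atf4, Cbs, Pck2, Pip4p1 and Glb1 fall outside it and were chosen after their values were seen. Values of a few genes that the rule names are not reported here, and ChIP-seq tables were not used.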

Additional observations from a re-analysis of the deposited data

Results flagged for a closer look

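Within groups of 4 libraries, 124 groups of named genes were checked for a single library far from the other 3, which chance gives in about 1 of 20 groups, and 6 stood out. In WT cells, Svil was 71.0 in replicate 1 against 94.97 to 96.3, Fth1 50170.1 in replicate 1 against 42399.6 to 43299, and Fabp4 11.0 in replicate 4 against 11.5 in the others. In KO cells, Gm10825 was 64.7 in replicate 1 against 69.0 to 69.7, Nptxr 12.1 in replicate 2 against 7.68 to 8.28, and Zfp395 1.1 in replicate 3 against 0 in the others. None of these gaps bridged the distance between WT and KO libraries. Apart from Fth1, these genes were chosen for no overlap, so for them this follows from the choice.

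For 2 genes the KO effect differed between LPS-treated and untreated cells by the interaction test, with opposite directions of the effect. The difference was -3.71 for Abca1 and -3.09 for Chac1 on the log2 scale. Without WT LPS replicate 4 it was -3.89 and -3.12.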

How the results depend on the processing

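Library totals, median-of-ratios factors, pseudocounts of 0.5 and 5, no filter beyond 1 read, a filter at 50 reads and precision weights each left the number of called genes within 1.5 times of 7212, and so did leaving out each library in turn (6760 to 7190). A fit of all 16 libraries called 4180 genes (2122 higher, 2058 lower), against 6993 without WT LPS replicate 4, and the test against a 1.5-fold change called 1007 (584 and 423). With the filter at 50 reads, 212 genes were lower by at least 1 log2, since fewer genes were tested (10297). Of 338 named genes that were called, 316 kept call and direction under every setting other than the 1.5-fold test, and Zbtb33 was the only named gene that changed sign, from 0.05 to -0.028 with library totals, without passing either time. Planned fits with edgeR and DESeq2 on recovered reads were not run: the deposited values are scaled, and all tests were kept to limma.

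Without WT LPS replicate 4 the interaction was called for 4620 genes. ATAC-seq sites numbered 2539 without the trend, and 3189 to 4087 when 1 library was left out, lowest without control replicate 1 and next without control replicate 3 (3345). The cause of these shifts was not tested. With the replicate number as a block, 7264 genes (3680 higher, 3584 lower), 2154 interactions and 5267 sites were called. The numbers did not pair the samples: same-numbered WT and KO libraries had correlations of their deviations of 0.02, 0.07, -0.0034 and -0.05 in RNA and of -0.005 to -0.001 in ATAC-seq. Depth limits low genes: 3 reads over 4 libraries were the floor.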

Other observations

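Integrin and matrix genes were called at shares near those of all tested genes (31.8% higher, 31% lower). Of 30 tested integrins and adhesion molecules, 11 rose and 9 fell (36.7% and 30%): Cd93, a receptor of myeloid and endothelial cells, by 2.70 and the integrin chain Itgal by 1.42, against Itga6 (-1.31) and Sdc3 (-1.12). Of 19 matrix genes, proteases and inhibitors, 6 rose and 7 fell (31.6% and 36.8%), among them Mmp14 (-2.70), a membrane-bound collagenase, and Timp2 (-1.74). Mmp14 stood at 6.92, 6.38, 6.68 and 5.51 in the WT libraries and 0.653, 0, 0 and 0 in the KO libraries, with no overlap. Scavenger and engulfment receptors split into 7 higher and 6 lower of 16, with the mannose receptor Mrc1 (1.22) among those that rose. Of 20 MHC class I processing genes, 4 rose and 10 fell (2 and 2 in the fit of all 16 libraries), and H2-M3, which presents formylated peptides, rose from 128 ± 8.23 to 609 ± 12.0 (mean ± SD, n = 4; log2 2.25). Of 13 class II and costimulation genes, 8 rose and 1 fell.

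Housekeeping groups moved little. Proteasome subunits split into 9 higher and 7 lower of 31, the tricarboxylic acid cycle into 8 higher and 11 lower of 30, mitochondrial biogenesis, import and translation into 11 higher and 10 lower of 35, ribosome biogenesis into 11 higher and 12 lower of 28 and fatty acid synthesis into 8 higher and 7 lower of 15, with 0 genes past 1 log2 in any of them. In the fit of all 16 libraries the first 3 of these lists had 3 and 1, 3 and 5, and 5 and 5. Myc fell by 0.94 on the log2 scale, from 29.2 ± 5.70 to 14.7 ± 2.15. The far more abundant Mycn fell by 0.53, from 10554 ± 454 to 7333 ± 370. Among 39 histone deacetylases and corepressor factors, 9 rose and 14 fell, with Hdac5 (-0.90) lower and Hdac7 (0.72) higher. Apoptosis and survival genes split into 10 higher and 11 lower of 27, and Ripk3, a kinase of necroptosis, fell (-1.48). Glutathione, cystine and arginine genes split into 12 higher and 7 lower of 25, and SOCS, STAT and TAM genes into 8 higher and 6 lower of 20. Non-coding RNA genes counted 136 higher and 82 lower of 487 tested.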
